A study of Mus musculus with 2 samples.

Results

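The mouse genome carries 6 genes for conventional actin, and these were followed here in young skeletal muscle: the striated muscle actins Acta1 and Actc1, the smooth muscle actins Acta2 and Actg2, and the cytoplasmic actins Actb and Actg1. They were chosen by name, as the complete family, from the 55536 annotated genes in the tables. Actin-like and actin-related genes were kept apart as a list of their own. The tissue was the gastrocnemius, a fast calf muscle, of female B6CASTF1/J mice aged 14 days, which are first-generation hybrids of C57BL/6J and CAST/EiJ. All RNA belonged to 1 group of 2 libraries, replicates 1 and 2, each made from 300 ng of total RNA. The group had no treatment, engineered allele or control. The labels call the libraries biological replicates but give both the same donor label, and they do not make clear whether each came from 1 female or from a pool of 3. The spread between them may therefore be technical or between animals, and every comparison between them is a description with no test.

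Actin monomers assemble into filaments that form the thin filaments of the sarcomere, the contractile bundles of smooth muscle and the cytoskeleton of nearly every cell. The proteins of the family are almost alike and differ most at their amino ends, while the genes differ sharply in where they are used. Acta1 is the actin of adult skeletal muscle. Actc1 is the main actin of the heart and is also used by skeletal muscle before and around birth, and Acta2 and Actg2 are typical of vascular and of gut and urogenital smooth muscle. Serum response factor (SRF), which binds a DNA motif called the CArG box, drives muscle actin genes, and free actin monomers hold back its MRTF cofactors.

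The coding sequences show where the family diverges, and their first 45 bases, beginning with the start codon, are given here for the main transcript of each gene in GENCODE M21. Capitals mark bases that differ from Acta1 in a pairwise alignment of the 2 whole coding sequences, and alignment gaps are not drawn.
Acta1: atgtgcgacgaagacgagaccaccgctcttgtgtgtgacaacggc
Actc1: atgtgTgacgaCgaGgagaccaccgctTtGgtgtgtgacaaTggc
Acta2: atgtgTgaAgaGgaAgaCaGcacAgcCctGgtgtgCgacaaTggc
Actg2: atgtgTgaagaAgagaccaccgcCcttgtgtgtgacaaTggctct
Actb: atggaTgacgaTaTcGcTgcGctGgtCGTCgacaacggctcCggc
Actg1: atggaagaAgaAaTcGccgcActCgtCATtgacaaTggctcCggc
Of these bases, 6 in Actc1, 11 in Acta2, 4 in Actg2, 12 in Actb and 11 in Actg1 differed from Acta1. The cytoplasmic genes lack the codons that follow the start codon in the muscle genes, so their lines begin with a different second codon. Acta1, Actc1 and Acta2 each have 1131 coding bases (377 codons), Actg2 has 1128 (376 codons) and Actb and Actg1 have 1125 each (375 codons).

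Over the whole coding sequence the closest pair was the cytoplasmic Actb and Actg1, at 88.6% identity. The striated pair Acta1 and Actc1 shared 86.3% and the smooth muscle pair Acta2 and Actg2 84.2%, less than Acta1 shared with Acta2 (85.4%) or Actg2 (85.0%). Acta2 and Actg1 were the farthest apart, at 81.5%. Sequence likeness therefore grouped the cytoplasmic genes but not the smooth muscle genes. Over the whole main transcripts, the longest stretch without a mismatch was 77 bases, between Acta1 and Actb, ahead of 62 bases between Actb and Actg1. The untranslated ends differ more in size, with 5′ ends of 72 bases in Acta1-201 and 324 bases in Acta2-201, and 3′ ends of 80 bases in Actg2-201 and 700 bases in Actg1-202.

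**Figure D1:**
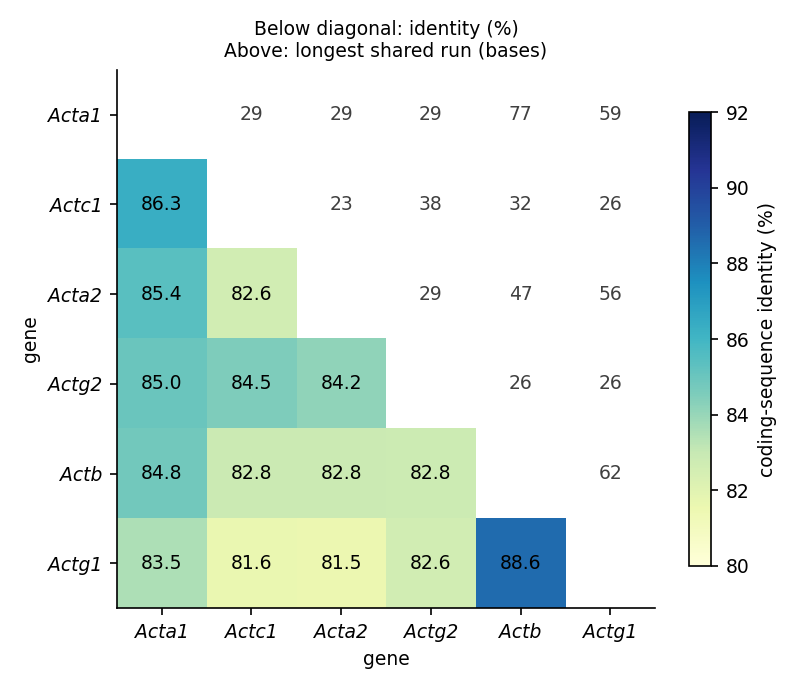
Likeness of the 6 actin coding sequences. Cells below the diagonal are coloured by coding-sequence identity in percent, and numbers above it give the longest stretch in bases that the 2 main transcripts share without a mismatch; Actb and Actg1 form the closest pair at 88.6%, and no shared stretch is longer than 77 bases.

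This likeness bears on how reads can be assigned. In the gene tables the effective length of a feature fell 99 bases short of its length, so the transcripts were searched in windows of 100 bases. No such window of the 6 main transcripts occurred, letter for letter, in another actin gene. Of the 1853 windows of Actg1-202, 946 (51.0%) also occurred in another annotated gene, against 20 of 1821 (1.1%) for Actb-201 and 0 for the other 4 genes. All 6 genes that share windows with Actg1 are pseudogenes. Gm12715 held 823 of these windows and Gm8399 held 327. The expected counts of the 6 pseudogenes summed to 456.6 in replicate 1 and 766.5 in replicate 2, which is 7.35% and 7.11% of the Actg1 count. Gm8399 alone stood at 14.6 and 20.7 TPM. The deposited posterior SD of the Actg1 count was 0.246% of it in replicate 1 and 0.181% in replicate 2. A second deposited quantification, made directly from the reads, gave Actg1 1.01 and 1.02 times this count. It gave the 6 pseudogenes 269.4 and 437.1 counts in sum. How the authors' counting divided the shared reads was not tested, so the level of Actg1 is uncertain beyond these values.

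Acta1 was by far the most abundant actin mRNA. Acta1 (ENSMUSG00000031972.5; chromosome 8, 123891769 to 123894751, minus strand of mm10) stood at 28140 TPM in replicate 1 and 30304 TPM in replicate 2, ranking first among 22015 nuclear protein-coding genes in both. TPM is abundance per transcript length, scaled to a fixed sum over the library, so levels of different genes can be set side by side. Actc1 (ENSMUSG00000068614.7; chromosome 2, 114047282 to 114053548, minus strand) stood at 2857 and 3515 TPM, ranking 17 and 15. The 2 striated genes thus lay above every other actin in both libraries. Actc1 is also the heart's actin, and of 12 heart markers Myl7, Nppa, Nppb and Nkx2-5 were listed at 0 in both libraries while 4 reached 1 TPM in both. The highest was Myh6, the alpha-cardiac myosin heavy chain, at 63.2 and 104 TPM, but 33.4 and 47.0 TPM in the second quantification. The developing muscle list had 7 of 8 members at 1 TPM or more in both libraries, led by the perinatal myosin Myh8 at 147 and 211 TPM.

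Actb was the highest of the 4 remaining genes. Actb (ENSMUSG00000029580.14; chromosome 5, 142903115 to 142906754, minus strand) stood at 383 and 608 TPM, ranking 129 and 65. Its cytoplasmic partner Actg1 (ENSMUSG00000062825.15; chromosome 11, 120345690 to 120348542, minus strand) stood at 125 and 191 TPM, ranking 431 and 310. Both were lower in replicate 1. The smooth muscle gene Acta2 (ENSMUSG00000035783.9; chromosome 19, 34241090 to 34255590, minus strand) stood at 119 and 306 TPM, ranking 450 and 186. Actg2 (ENSMUSG00000059430.14; chromosome 6, 83512905 to 83536265, minus strand) was close to undetected, at 0.55 and 2.43 TPM on 19 and 96 counts. It was the only one of the 6 genes below 1 TPM in a library.

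**Figure D2:**
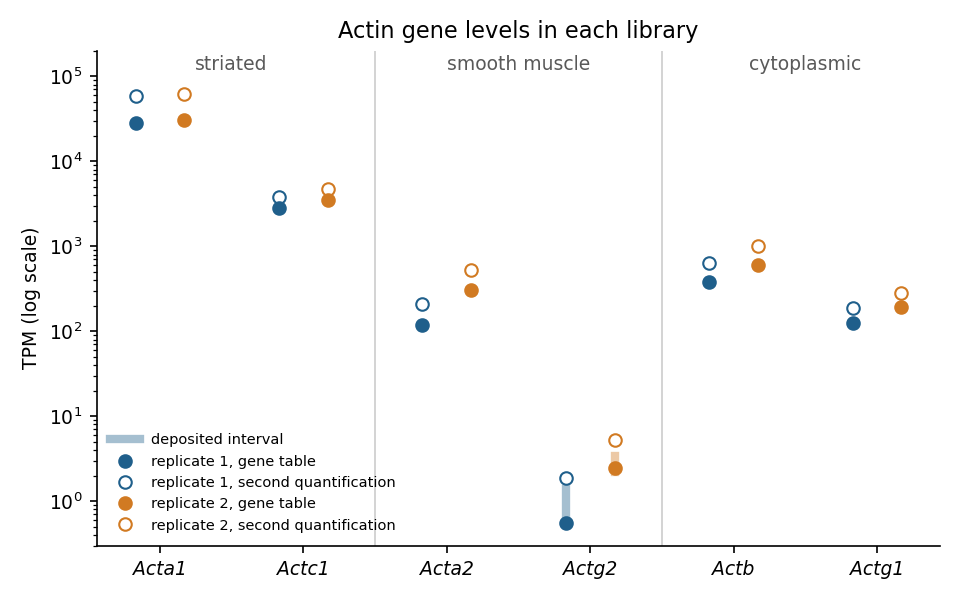
TPM of the 6 actin genes (log scale) in replicate 1 (blue) and replicate 2 (orange). Filled points are the deposited gene tables, pale bars the deposited intervals (too narrow to see for all but Actg2) and open points the second deposited quantification; the order of the genes is Acta1, Actc1, Actb then Acta2 and Actg1, whose order differs between the libraries, with Actg2 lowest.

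The mean levels were 29220 ± 1530 TPM for Acta1, 3186 ± 465 for Actc1, 496 ± 159 for Actb, 213 ± 132 for Acta2, 158 ± 46.2 for Actg1 and 1.49 ± 1.33 for Actg2 (SD, n = 2). By mean and SD Acta2 overlapped Actg1 below it and, narrowly, Actb above it, while the other neighbours in this order lay apart. Within each library Actb lay above Acta2, with deposited intervals apart, so the order of Acta2 and Actg1 alone was unsettled. In replicate 1 Acta2 was 0.952 times Actg1 and their deposited intervals (111.9 to 121.2 and 120.0 to 126.9 TPM) overlapped, whereas in replicate 2 Acta2 was 1.61 times Actg1. In the second quantification, made directly from the reads, Acta2 was the higher of the 2 genes in both libraries, at 1.12 and 1.86 times Actg1. The deposited intervals lie around a posterior mean and need not hold the TPM value. That of Actg2 in replicate 1 ran from 0.564 to 1.38 TPM.

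The 6 genes summed to 31626 TPM in replicate 1 and 34926 TPM in replicate 2. This was 3.20% and 3.54% of the TPM of all genes and 6.65% and 6.97% of that of nuclear protein-coding genes. Within the pool Acta1 held 89.0% and 86.8%, and Actc1 9.03% and 10.1%. The striated genes together held 98.0% and 96.8%, or 97.4% ± 0.837 (SD, n = 2). The cytoplasmic genes held 1.61% and 2.29%, and the smooth muscle genes 0.379% and 0.883%. Every class outside the striated one had the smaller share in replicate 1. In bulk tissue fewer cells of a type and less RNA per cell cannot be told apart, so these shares do not say how many cells of each kind were present.

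Each class had a leading gene in both libraries. Acta1 was 9.85-fold and 8.62-fold above Actc1, or 15.1-fold and 13.3-fold in the second quantification. Actb was 3.06-fold and 3.19-fold above Actg1, a log2 ratio of 1.64 ± 0.042 (SD, n = 2) and the steadiest of the 3 ratios. Acta2 was 217-fold and 126-fold above Actg2, a ratio that rests on the 19 and 96 counts of Actg2. The second quantification gave 112-fold and 99.7-fold for it. In each library the deposited intervals lay apart in all 3 pairs. Actb was also 3.21-fold and 1.99-fold above Acta2.

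The size of the Acta1 lead depended on which transcript the reads were given to. Acta1 has 2 annotated coding transcripts. Acta1-201 has 1446 bases in 7 exons and holds the whole coding sequence, while Acta1-202 has 616 bases, ends inside the coding sequence and carries an extra exon in the 5′ untranslated region (chromosome 8, 123894422 to 123894511, mm10). In the alignment-based tables Acta1-201 made up 99.2% of Acta1 in replicate 1 and 99.1% in replicate 2, with 3466 and 4356 expected counts for Acta1-202. The second quantification gave Acta1-202 184028 and 232964 counts, 45.5% and 46.3% of the gene's TPM. The summed counts of the gene hardly differed between the quantifications, at 1.01 and 1.00 times, but its TPM was 2.07 times as high in the second in both libraries. The median of that TPM ratio over 11954 genes detected in both was 1.33, with quartiles at 1.23 and 1.52. Of the 517 windows of 100 bases in Acta1-202, 149 occur in no other transcript, against 979 of 1347 in Acta1-201. Which division of the reads is right was not tested.

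**Figure D3:**
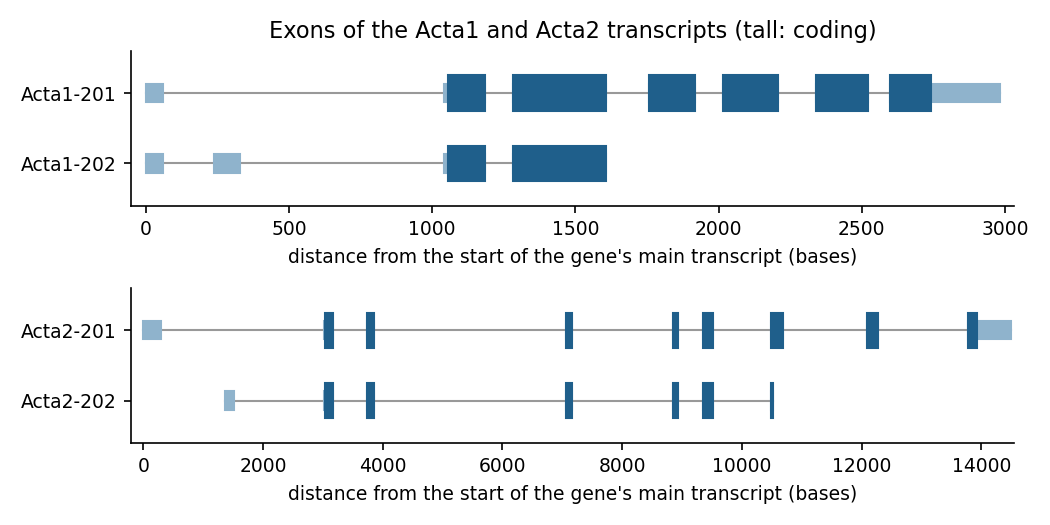
Exon structure of the annotated transcripts of Acta1 and Acta2, by distance in bases from the start of the main transcript. Tall boxes are coding and low boxes untranslated; Acta1-202 has an extra untranslated exon and stops inside the coding sequence, and Acta2-202 starts 1360 bases downstream of Acta2-201.

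Acta2 likewise has a full and a short transcript. Acta2-201 held 68.8% of Acta2 in replicate 1 and 67.8% in replicate 2, and the 826-base Acta2-202, which starts 1360 bases downstream, held 31.1% and 32.2%. The second quantification gave Acta2-202 49.2% and 48.5%. Both libraries thus showed the same split, and the quantifications moved it by more than the libraries did. Actc1-201 was nearly the only transcript of its gene, at 99.99% and 99.96%. For Actg2, Actg2-201 held 100% in replicate 1 and 64.8% in replicate 2, where 35.2% went to Actg2-202 on 32.8 counts. The deposited posterior means gave Actg2-201 30.7% and 50.2%, so the split of this low gene is uncertain. The second quantification gave Actg2-202 0 and instead put 29.7% and 37.4% on Actg2-205.

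Among the cytoplasmic genes, Actb-201 held 74.7% of Actb in replicate 1 and 77.8% in replicate 2, and the non-coding Actb-206 held 22.6% and 19.7%. In the second quantification Actb-201 held 54.8% and 55.6% and Actb-206 7.99% and 6.77%. The 930-base coding transcript Actb-208 held 1.01% and 0.75% in the alignment-based tables, against 26.1% and 26.2% in the second quantification. Actg1-202 held 91.2% and 87.1% of Actg1, against 66.9% and 66.1% in the second quantification. Actg1-206, annotated as a target of nonsense-mediated decay, held 3.44% and 3.69%, and its share was 3.32% and 3.42% in the second quantification. The smaller transcripts Actb-205, at 0.87% and 1.33%, and Actg1-204, at 0% and 2.22%, passed 1% in replicate 2 alone. The retained-intron transcripts Actg1-207, Actg1-208 and Actg1-209 held 2.03% and 3.40%, 1.02% and 1.25%, and 1.70% and 1.91%. They summed to 4.75% and 6.56% of Actg1, on 109.9 and 272.3 counts, while those of Actb summed to 1.21% and 1.64%. Of the 30 annotated transcripts of the family, 16 reached 1% of their gene in at least 1 library. The main transcript of each of the 6 genes was the same in both libraries and in both quantifications.

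**Figure D4:**
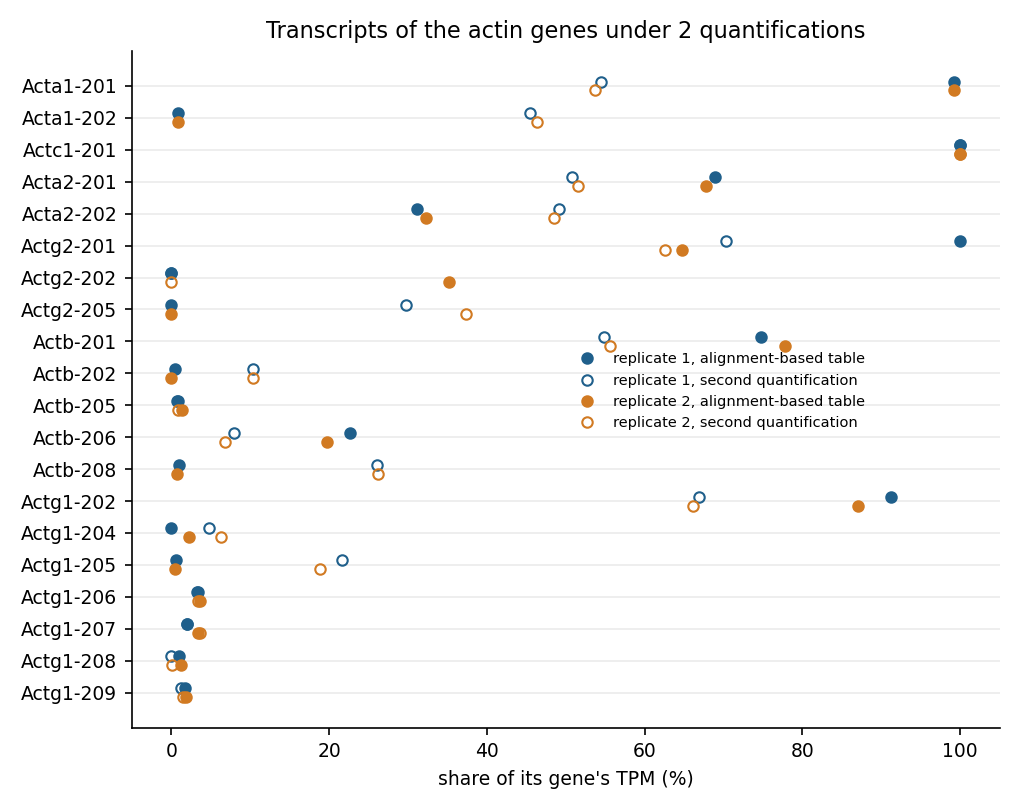
Share of each gene's TPM (percent) held by its transcripts, for those at 1% or more in any table. Filled points are the deposited alignment-based tables and open points the second quantification, blue for replicate 1 and orange for replicate 2; replicates lie close together for all genes but Actg2, while the quantifications differ, most for Acta1, where Acta1-201 stands at 99.2% and 99.1% against 54.5% and 53.7%.

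Promoter sequence was at hand in RefSeq (GRCm38.p6) for Acta1, Actc1, Acta2 and Actg1, as windows of 250 bases before and 50 bases after the annotated start. A CArG box, searched only as CCWWWWWWGG with W for A or T, was found in 3 of them, against 535 of 32851 promoters of the same length (1.63%). Looser forms of the box were not searched, so for Acta2 only this strict form is known to be absent from the window. The sequence around each box is given on the strand of the gene, with the box in capitals, because these are the elements through which SRF is known to act on actin genes.
Acta1: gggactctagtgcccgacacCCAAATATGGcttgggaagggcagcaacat
Actc1: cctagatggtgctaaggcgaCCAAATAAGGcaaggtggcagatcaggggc
Actg1: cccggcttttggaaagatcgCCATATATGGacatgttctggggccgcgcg
They lie at chr8:123894819-123894868, chr2:114052893-114052942 and chr11:120348556-120348605 on the minus strand, and the boxes begin 73, 47 and 90 bases before the RefSeq start. Counted from the start of the main GENCODE M21 transcript, these distances are 97, 35 and 43 bases. The letters CATTCC, the MCAT motif of TEAD factors, were found on either strand in the windows of Acta1 and Acta2 and in 14.7% of all promoters. TATAAA was found in those of Acta1 and Actc1 and in 13.6% of all promoters. Its matches lay at -7 in Acta1 and 33 in Actc1, counted in bases from the RefSeq start. CANNTG, the E-box of myogenic factors, was found in all 4 windows but also in 72.3% of all promoters. These matches describe the letters only, and no binding was measured.

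The libraries differed most in the smooth muscle actins. Ratios between them were taken as log2 of replicate 1 over replicate 2 from expected counts scaled by TMM, which sets the bulk of genes level, and 2-fold was the mark for a difference. Of 15734 genes with at least 20 counts in sum, 4.68% passed it in either direction, 2.06% as higher in replicate 1 and 2.62% as higher in replicate 2. Of the 6 actin genes, 2 passed it, Acta2 and Actg2, both lower in replicate 1. Acta2 had 5234 and 15390 counts, a log2 ratio of -1.19 (95% interval -1.23 to -1.14, counting error only), 2.27-fold more in replicate 2. A ratio of this size or more was found for 2.9% of tested genes. Actg2 had a log2 ratio of -1.94 (-2.76 to -1.25), and -1.24 with the second quantification, which gave it 39 and 119 counts.

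The cytoplasmic genes were nearer to level and the striated genes nearer still. Actb had 16822 and 31499 counts and a log2 ratio of -0.54 (-0.56 to -0.51), and Actg1 6216 and 10785 counts and a ratio of -0.43 (-0.47 to -0.38). Actc1 had 110427 and 156952 counts and a ratio of -0.14 (-0.15 to -0.13). Acta1 had 1060772 and 1320087 counts and a ratio of 0.055 by TMM, but its sign turned with the scaling, to -0.073 by total counts, -0.166 by spike-ins and -0.107 in TPM. By TMM the other 5 genes were lower in replicate 1, and this held by DESeq2 size factors, total counts, spike-ins, TPM and the second quantification. The median over all tested genes was -0.01 by TMM, -0.138 by total counts, -0.23 by spike-ins and -0.167 in TPM. By TMM 324 genes past 2-fold were higher in replicate 1 and 413 in replicate 2, against 239 and 560 by total counts, 192 and 721 by spike-ins and 275 and 774 in TPM. Past 2-fold stood Acta2 and Actg2 and no other actin under all of these scalings.

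**Figure D5:**
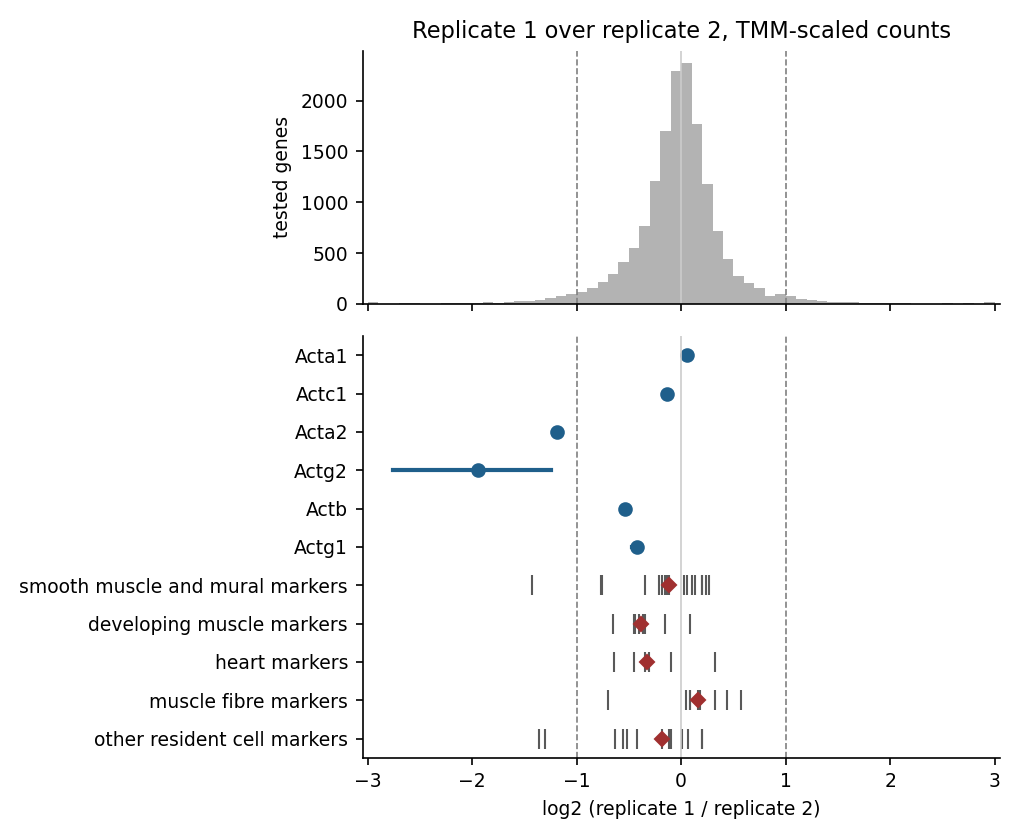
Log2 ratios of replicate 1 over replicate 2 from TMM-scaled counts. The upper panel counts all 15734 tested genes in steps of 0.1, with values beyond 3 placed in the end bins; the lower panel gives the 6 actin genes with their counting intervals (blue, mostly narrower than the point) and the members (ticks) and median (red diamond) of 5 marker lists, with 2-fold as dashed lines, beyond which lie Acta2 and Actg2.

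Markers of the cells that use smooth muscle actin differed in both directions. Of 17 smooth muscle and mural markers, 16 reached 1 TPM in both libraries, 8 were higher in replicate 1 and 9 in replicate 2 by TMM, and their median log2 ratio was -0.12. In TPM 4 were higher in replicate 1 and 13 in replicate 2, with a median of -0.23. The member past 2-fold was Cnn1, the smooth muscle protein calponin, at 0.94 and 3.84 TPM on 34 and 119 counts (log2 -1.43). Myl9, a smooth muscle myosin light chain, stood at 58.0 and 109 TPM (-0.76), and Tagln, transgelin, at 18.0 and 31.5 TPM (-0.76). Rgs5, a pericyte marker, had 107 and 104 TPM (0.20) and Synpo2, an actin-binding protein that striated muscle also makes, 86.6 and 94.2 TPM (0.02). The summed TPM of the list was 484.0 and 593.6, so that Acta2 was 0.247 and 0.516 times that sum. Neither contractile nor mural markers all went 1 way by TMM. Besides Cnn1, Myl9 and Tagln, Myh11, the smooth muscle myosin heavy chain, was lower in replicate 1, at -0.14. Smtn and Mylk were lower too, at -0.21 and -0.12. Lmod1, a leiomodin, was at 0.20, but its counting interval (-0.10 to 0.49) spanned 0, as did that of Synpo2. The mural markers Cspg4, Mcam and Notch3 were at -0.35, -0.19 and -0.15. Those that went the other way, like Rgs5, were Pdgfrb, Abcc9, Kcnj8 and Higd1b, at 0.24, 0.11, 0.13 and 0.27. The remaining member Itga8 was at 0.05, and its interval spanned 0, like those of Kcnj8 and Higd1b. The part of these cells in the Acta2 ratio was not tested.

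Some markers of other resident cells also differed between the libraries, and the slow myosin gene Myh7 did so by less than 2-fold. In the list for fibroblasts, vessels, nerve and other resident cells, 2 of 13 genes passed 2-fold, among them the myelin gene Mbp at 52.8 and 143 TPM (log2 -1.30). The collagens Col1a1 and Col3a1 stood at 1128 and 1958 TPM (-0.63) and at 759 and 1135 TPM (-0.42). By TMM 9 of the 13 were lower in replicate 1 and 4 higher, and in TPM 12 were lower and 1 higher. Postn (-0.52), Pax7 (-0.56), Dcn (-0.185), Csf1r (-0.115) and the endothelial marker Kdr (-0.10) were also lower by TMM. The 4 that went the other way were the endothelial markers Pecam1 (0.20) and Cdh5 (0.20), the fibroblast marker Pdgfra (0.06) and Ptprc (0.008). The intervals of Pdgfra and Ptprc spanned 0. The list's summed TPM was 2467 and 4095, and its median log2 ratio was -0.19 by TMM and -0.575 in TPM. Of the 9 muscle fibre markers none passed 2-fold and the median was 0.16 by TMM but -0.007 in TPM, with Mylpf, Ckm and Myl1, the most abundant, between 0.05 and 0.16 by TMM. The others higher in replicate 1 by TMM were Myh1 (0.57), Myh2 (0.435), Atp2a1 (0.325), Tnnt3 (0.18) and Myh4 (0.08). Myh7, the slow myosin heavy chain, was the 1 member lower in replicate 1 by TMM, at 288 and 528 TPM (-0.70), whereas in TPM 5 of the 9 were lower there. Developing muscle markers had 7 of 8 members lower in replicate 1 by TMM, with a median of -0.38 and summed TPM of 226 and 315. The most abundant were Myh8, Myog (a myogenic transcription factor) and Myh3 (the embryonic myosin, at 13.6 and 24.0 TPM). Myog was the member higher in replicate 1 by TMM, at 0.09, and its interval spanned 0, like those of Myl4, Chrng and Mymx. Of all tested genes, 7609 were higher in replicate 1 by TMM and 8125 in replicate 2. Heart markers had a median of -0.33 over 6 tested, and Myl4 and Tnnt2 stood in both of these lists. The part of these cells and fibres in the actin ratios was not tested.

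The mRNAs for monomer binding and turnover were mostly lower in replicate 1, without passing 2-fold. All 13 genes reached 1 TPM in both, with none past 2-fold. By TMM 3 were higher in replicate 1 and 10 in replicate 2, against 7609 and 8125 of all tested genes. Their median log2 ratio was -0.23 by TMM, against -0.01 for all tested genes. Cfl2, the muscle cofilin that severs filaments, led at 320 ± 40.3 TPM. Tmsb4x, a thymosin that sequesters monomers, followed at 183 ± 24.4 TPM and Pfn1, a profilin that feeds monomers to growing ends, at 165 ± 34.3 TPM (SD, n = 2). The list summed to 1138 and 1434 TPM, compared with 31626 and 34926 TPM for the actins. Its lowest ratios were those of Tmsb10, another thymosin, at -0.58, and Cfl1, the non-muscle cofilin, at -0.46.

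Actin is folded by the chaperonin CCT with prefoldin, and its ends are then modified. All 18 genes of this list were detected, none passed 2-fold, and their log2 ratios lay between -0.21 and 0.10. Pfdn5, a prefoldin subunit, stood at 103 ± 11.7 TPM, and the chaperonin subunits Cct5 and Tcp1 at 98.7 ± 18.3 and 96.0 ± 10.1 TPM. The filament nucleators were lower, with all 15 detected, none past 2-fold and ratios between -0.21 and 0.20. Their leading genes were the Arp2/3 subunits Arpc2, Arpc3 and Arpc4, at 38.3 ± 4.8, 33.1 ± 3.49 and 30.6 ± 2.79 TPM. Neither list thus showed a difference as large as those of Acta2 and Actg2.

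Of 11 genes that set the length or cap the ends of the thin filament, 10 reached 1 TPM in both libraries, none passed 2-fold and the median log2 ratio was -0.03. Neb, the giant protein that runs along the thin filament, stood at 2134 ± 21.4 TPM, Capzb, the capping protein of its barbed end, at 279 ± 30.8 TPM and Klhl41, a protein that helps to keep nebulin stable, at 256 ± 18.3 TPM. The ratio farthest from 0 was that of Lmod2, a leiomodin that elongates thin filaments, at 0.91 with 96.8 and 57.6 TPM.

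The SRF pathway had 9 of 10 members detected and a median log2 ratio of -0.05. Rhoa, the small GTPase upstream of the MRTF cofactors, stood at 78.1 ± 11.8 TPM and Tead1, the MCAT-binding factor, at 55.5 ± 4.2 TPM. Abra, a striated muscle activator of SRF signalling, was the member past 2-fold, with 79.4 TPM in replicate 1 and 38.3 TPM in replicate 2 and a log2 ratio of 1.21. Abra was thus higher in the library where Acta2 and Actg2 were lower. By TMM 7 of the 10 members were lower there, and in TPM 8 were. The lowest was Mrtfa, an MRTF cofactor, at 10.3 and 18.2 TPM (-0.64). Srf itself stood at 25.2 and 32.3 TPM (-0.27). Of the 12 actin-like and actin-related genes, 7 reached 1 TPM in both libraries, and Actbl2 and Actl7a were listed at 0 in both. Actr1b, Actr10 and Actr1a, components of dynactin, led at 67.3 ± 3.65, 49.2 ± 4.46 and 28.6 ± 2.84 TPM, and none of the 7 tested passed 2-fold.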

How the data were processed

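For each library the authors deposited a gene and a transcript table built on transcriptome alignments, plus another transcript table that came straight from reads, on mm10 with GENCODE M21, per the accompanying notes. Which aligner, quantifiers and strand setting were used is not given in the sources used. The deposited tables hold expected counts, which divide shared reads among features, and TPM, scaled over all features, spike-ins included. They also hold an isoform percent, each transcript's percent of its gene, per the file headers, and posterior intervals. The second deposited table holds estimated counts and TPM, summed here per gene. The reference is that of C57BL/6J, and loss of CAST/EiJ reads was not measured.

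Gene counts summed to 35592003 in replicate 1 and 42105856 in replicate 2, and spike-ins to 285877 and 317175. Rows naming no gene, 26248 numbered ones with 1 and 0 counts and 1 other with 1 and 0, were left out.

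Expected counts were rounded, and TMM factors from edgeR 4.0.16 were 0.957 and 1.05. Log2 ratios used a prior count of 0.5 and Clopper-Pearson 95% intervals, which cover counting error only. A quasi-likelihood fit in edgeR would have had 0 residual degrees of freedom here, so nothing was tested. "Tested" genes are those with a summed count of at least 20. Tools were Biopython 1.88, scipy 1.17.1, numpy 2.4.6, pandas 2.3.3, Python 3.11.15, DESeq2 1.42.0 and R 4.3.3. Sequences came from GENCODE M21 transcripts and RefSeq promoters, which matched 4 of the 6 genes.

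The family, the gene lists and the comparisons were chosen with earlier results of these data known. Named were the 6 genes, their transcripts at 1% or more, and in each list the 3 members of highest mean TPM and any past 2-fold, of which 1 is not reported here. Tagln, Myh11, Lmod1, Cspg4, Mcam, Notch3, Pecam1, Cdh5, Pdgfra, Tmsb10, Cfl1, Lmod2, Srf, Myh7, the pseudogenes, Actg2-205, the heart genes at 0 and the actin-like genes at 0 were named after their values were seen. The same holds for Pdgfrb, Abcc9, Kcnj8, Higd1b, Smtn, Mylk, Itga8, Myh1, Myh2, Atp2a1, Tnnt3 and Myh4. It also holds for Postn, Pax7, Dcn, Csf1r, Kdr, Ptprc, Mrtfa, Chrng and Mymx. No gene was ranked for likeness to an actin, since 2 libraries give no pattern.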

Additional observations from a re-analysis of the deposited data

How the results depend on the processing

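The summed TPM of the 6 genes, 33280 as the mean of both libraries, was 66150 in the second quantification, 68080 when scaled over nuclear protein-coding genes and 50430 with the counts of the second quantification on the effective lengths of the gene tables, an alternative chosen after seeing the data. In the second quantification log2 Acta1 over Actc1 was 3.83 in place of 3.20, Acta2 over Actg2 6.72 in place of 7.37, Actb over Actg1 1.82 in place of 1.64, and Acta1-201 held 54.1% of its gene in place of 99.2%. On gene-table lengths the same counts, summed per gene, gave 3.22 for Acta1 over Actc1. This swap sets aside both the lengths of the second quantification and its division of reads among transcripts. Their parts in the larger ratio therefore cannot be told apart by this swap alone. In replicate 1 of the second quantification Acta1-202 had 26433 TPM on 184028 counts, and Acta1-201 had 31708 TPM on 883710 counts. Counts not divided by length gave 1.49 for Actb over Actg1. With no filter on low counts 6284 genes passed 2-fold, against 737.

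With 1 library left out, the summed TPM ranged from 31630 to 34930, the striated share from 96.8% to 98.0%, log2 Acta1 over Actc1 from 3.11 to 3.30, Acta2 over Actg2 from 6.98 to 7.76, Actb over Actg1 from 1.61 to 1.67 and Acta1-201 from 99.14% to 99.15%. With 2 libraries, leaving out 1 cannot move a mean beyond their spread. Of the alternatives with both libraries, 27 others for these main results moved by less than the spread between the libraries, or for counts by less than 1.5 times, and none reversed. For single genes and transcripts 45 moved and 49 did not, and for the medians of the other lists 2 were counted as moved and 28 were not. Medians not counted as moved were not all level. In TPM that of the other resident cell markers went from -0.185 to -0.575. Those of the muscle fibre markers (0.159 to -0.007) and the actin-like and actin-related genes (0.033 to -0.111) changed sign. No paired analysis was possible because the 2 libraries form 1 group. Depth limits Actg2 alone among the actins, and with 2 libraries no difference between animals can be tested.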
